A study of Mus musculus with 10 samples.

Results

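Smooth muscle and pericyte transcripts were examined in the gastrocnemius, a calf muscle, of mice with and without the intermediate filament protein desmin. The set holds 10 genes picked by name, Acta2, Myh11, Tagln, Cnn1, Smtn, Lmod1, Myl9, Rgs5, Pdgfrb and Cspg4, out of 54232 genes in the deposited table. All 10 were found there and all 10 passed the expression limit of the test. The knock-out mice were homozygous for the desmin null allele (Des -/-), and the controls were Des wt/wt littermates of the same congenic line, with B6J as background and 129Sv as the source of the allele Destm1Cba, with 5 mice per genotype at 3 months of age. The allele removes desmin from every cell of the animal, so muscle fibers and vessel walls lacked it together. The methods mention RNA of 5 muscles per genotype that was pooled, whereas the table has a column for each mouse. The labels give the gastrocnemius alone, whereas the study's text also names the plantaris, a small muscle beside it. Each column was taken as 1 replicate, and p-values measure only the spread between these columns.

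Mural cells wrap the tubes of endothelium that form blood vessels. Vascular smooth muscle cells surround arteries, arterioles and veins and contract through a dedicated set of actin, myosin and thin-filament proteins, whereas pericytes sit on capillaries and are recruited by platelet-derived growth factor from the endothelium. Desmin is a filament of vascular smooth muscle and of pericytes as well as of muscle fibers. Many contractile genes of smooth muscle are controlled by serum response factor and its partners of the myocardin family through a short sequence named the CArG box.

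Expression is given as the regularized logarithm (rlog) of the reads of a gene, corrected for the size of the library. A difference of 1 on this log2 scale is a 2-fold difference, and the method shrinks differences of genes with few reads. Read depth is unknown from such values. Des itself was 16.58 ± 0.67 (SD, n = 5) in the controls against 11.84 ± 0.06 (SD, n = 5) in the knock-out mice, and the groups did not overlap. The labelled tissue showed in Acta1, the skeletal muscle actin, which lay between 19.74 and 21.18 in all mice. Wild-type mouse 3 stood apart, with a mean correlation of 0.982 to the other wild-type mice. Within their own genotype, the other wild-type mice had 0.989 to 0.991 and the knock-out mice 0.996 to 0.997. The summed unlogged level of wild-type mouse 3 was 1.48 times the median mouse, against 0.949 to 1.06 for the others. This mouse also had the highest value of all 10 mice for 6 of the 10 genes, so the differences of the 10 genes are given with and without it. Gene tests were made with limma across the 14289 genes whose mean reached log2(10), and a gene was called at an adjusted p under 0.05 (Benjamini-Hochberg over all tested genes). The test takes 1 spread for both genotypes, whereas 9 of the 10 genes had a smaller SD in knock-out mice.

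Of the 10 smooth muscle and pericyte genes, 3 differed between genotypes. The leiomodin gene Lmod1 and the regulatory myosin light chain gene Myl9 fell, and the proteoglycan gene Cspg4 rose. The 3 called genes are 30% of the set, whereas 13.7% of all tested genes were called, 7.7% as higher and 5.99% as lower. The set was chosen with earlier results of these data known, so these shares are a description. The same 3 genes were those whose knock-out and wild-type values did not overlap, which held for 14.4% of all tested genes, 7.45% with higher and 6.97% with lower knock-out values. Of the 10 means, 9 were lower in knock-out muscle, and the median difference was -0.26 (log2 scale) against -0.003 over all tested genes. Without wild-type mouse 3 the median was -0.13, with 7 lower means, 2 higher ones and 1 difference of 0.00. In bulk muscle, fewer cells of a type and less RNA per cell cannot be told apart.

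**Figure D1:**
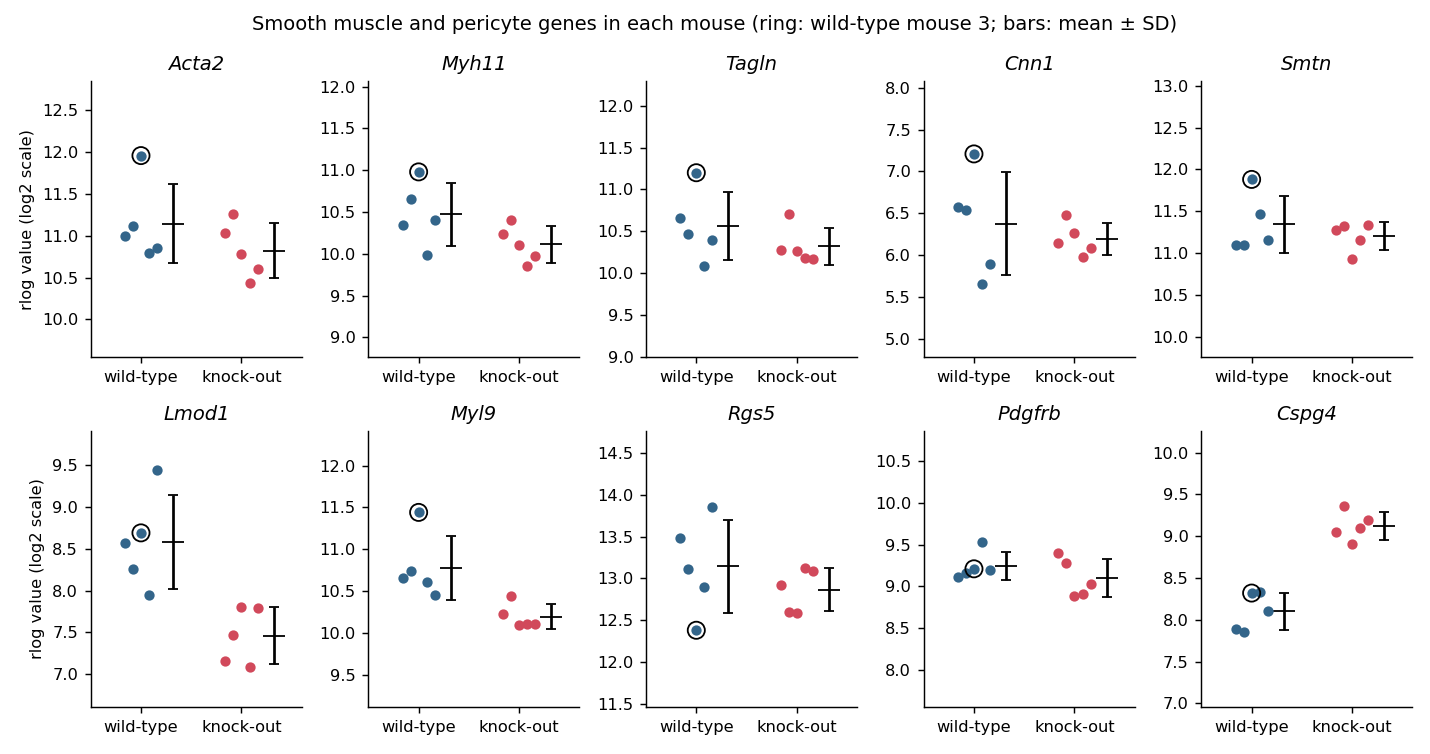
Each panel plots the rlog value (log2 scale, every axis of the same span) of 1 gene in the 5 wild-type mice (blue) and the 5 desmin knock-out mice (red), with the mean and SD beside the points and a ring around wild-type mouse 3. The groups are separate for Lmod1, Myl9 and Cspg4, and wild-type mouse 3 is the top point for Acta2, Myh11, Tagln, Cnn1, Smtn and Myl9.

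Lmod1 encodes leiomodin 1, which nucleates actin filaments in smooth muscle. The gene (ENSMUSG00000048096) occupies 135324807 to 135368065 of chromosome 1 (GRCm38, forward strand), 60.0 Mb from Des. Its rlog value was 8.57, 8.26, 8.69, 7.95 and 9.44 in wild-type mice 1 to 5 and 7.16, 7.47, 7.80, 7.08 and 7.79 in knock-out mice 1 to 5. All 5 knock-out mice lay under the lowest wild-type mouse, and wild-type mouse 5 was the highest. The mean was 8.58 ± 0.56 (SD, n = 5) with desmin and 7.46 ± 0.34 (SD, n = 5) without it. The log2 difference of -1.12 (standard error 0.24, 95% interval -1.64 to -0.60) had an adjusted p of 0.00693 from limma. It was the largest fall in the set, at 2.18-fold on the rlog scale, and was -1.10 without wild-type mouse 3. Lmod1 stayed called under all 19 alternative settings, with log2 differences between -1.28 and -0.91 and adjusted p (limma) from 5.6e-04 to 0.03.

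Myl9 encodes the regulatory light chain of smooth muscle myosin, whose phosphorylation starts contraction. The gene (ENSMUSG00000067818) lies on chromosome 2 from 156775420 to 156781658. Its rlog value was 10.65, 10.74, 11.44, 10.61 and 10.45 in wild-type mice 1 to 5 and 10.22, 10.44, 10.09, 10.10 and 10.10 in knock-out mice 1 to 5. The groups did not overlap, but knock-out mouse 2 and wild-type mouse 5 nearly met. The mean of 10.19 ± 0.15 (SD, n = 5) without desmin and that of 10.78 ± 0.38 (SD, n = 5) with it differed by -0.58 (standard error 0.16, 95% interval -0.93 to -0.24, adjusted p = 0.0257 from limma). Leaving out wild-type mouse 3 gave -0.42 on the log2 scale with an adjusted p of 0.00565 (limma). The call was lost when knock-out mouse 1, 3, 4 or 5 was left out, with adjusted p (limma) of 0.0536, 0.0637, 0.0646 and 0.0667. It was also lost without a limit on low values (adjusted p = 0.0737, limma) and where an adjusted p under 0.01 was required.

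The region in front of Myl9 is shown because it was the only 1 of 7 promoters read for the set that held an exact CArG box. Promoters came from RefSeq (GRCm38.p6) and covered 250 bases before to 50 bases after the start, and no promoter was read for Myh11, Tagln and Pdgfrb. The CArG box, with its core of 6 bases that are each A or T, was searched on both strands, where it reads alike. An exact box stood in 1.63% of 32851 promoters of the same length, and a box with at most 1 other base in the core stood in 9.98%. Acta2, which was not called, held a pair of boxes with 1 other base each, and is shown for comparison. All 4 boxes are printed 5′ to 3′ in the direction of the gene, with the box in capitals. For Myl9, chr2:156775273-156775342 on the forward strand holds the exact box, 161 bases before the start, and chr2:156775335-156775404 holds the box with 1 other base, 99 bases before it. For Acta2, chr19:34255438-34255467 and chr19:34255388-34255417 on the reverse strand lie 84 and 34 bases before the RefSeq start, inside the first exon that GENCODE gives.
Myl9 box at 161: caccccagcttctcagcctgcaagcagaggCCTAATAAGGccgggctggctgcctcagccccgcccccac
Myl9 box at 99: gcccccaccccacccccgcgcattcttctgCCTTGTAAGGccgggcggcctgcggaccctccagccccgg
Acta2 box at 84: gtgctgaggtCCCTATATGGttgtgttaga
Acta2 box at 34: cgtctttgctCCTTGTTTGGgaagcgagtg

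The other 5 promoters, those of Cnn1, Smtn, Lmod1, Rgs5 and Cspg4, held no such box, with or without the other base, in this window. Lmod1 and Cspg4, the genes with the largest differences, are therefore among those without one in the 300 bases read. A match is a description of the letters, and boxes further away or in introns were not read.

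Cspg4 encodes NG2, a chondroitin sulfate proteoglycan of the pericyte surface that is also made by other immature cells, such as precursors of oligodendrocytes. The gene (ENSMUSG00000032911) lies on chromosome 9 from 56865033 to 56899870. Its rlog value was 7.89, 7.86, 8.32, 8.33 and 8.10 in wild-type mice 1 to 5 and 9.05, 9.36, 8.91, 9.10 and 9.19 in knock-out mice 1 to 5. The lowest knock-out mouse (8.91) lay above the highest wild-type mouse (8.33), by 0.58, the widest gap of the 3 called genes. The mean of 9.12 ± 0.17 (SD, n = 5) without desmin and that of 8.10 ± 0.22 (SD, n = 5) with it lay 1.02 apart on the log2 scale (standard error 0.12, 95% interval 0.76 to 1.29, adjusted p = 9.7e-05 from limma). Cspg4 was the only gene of the set with a higher mean in knock-out muscle when all mice were used, by 2.03-fold on the rlog scale. Its log2 difference was 1.08 without wild-type mouse 3. It stayed called under all 19 alternatives, with log2 differences from 0.96 to 1.19 and an adjusted p (limma) of at most 8.1e-04.

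The remaining contractile genes of the set were not called. Acta2 encodes the smooth muscle actin, and its rlog value was 11.00, 11.12, 11.96, 10.79 and 10.85 in wild-type mice 1 to 5 and 11.03, 11.26, 10.78, 10.44 and 10.60 in knock-out mice 1 to 5. The groups overlapped, and the log2 difference of -0.32 (95% interval -0.78 to 0.13, adjusted p = 0.35 from limma) shrank to -0.12 without wild-type mouse 3. Myh11, which encodes the smooth muscle myosin heavy chain, ranged from 9.85 to 10.41 in knock-out and from 9.98 to 10.98 in wild-type muscle. Its log2 difference of -0.36 (95% interval -0.71 to 0.00, adjusted p = 0.183 from limma) was -0.23 without wild-type mouse 3. Tagln, which encodes the actin-binding protein transgelin, ranged from 10.17 to 10.71 in knock-out and from 10.09 to 11.20 in wild-type muscle. It had a log2 difference of -0.24 (95% interval -0.62 to 0.14), and -0.08 without that mouse.

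Cnn1, which encodes the thin-filament protein calponin, had the widest wild-type spread of the set, from 5.65 to 7.21, against 5.98 to 6.48 in knock-out muscle. Its log2 difference was -0.19 (95% interval -0.71 to 0.33) and turned to 0.02 without wild-type mouse 3. Without wild-type mouse 4 or 5 it was -0.37 or -0.31. Smtn, which encodes the actin-associated protein smoothelin, ranged from 10.93 to 11.33 in knock-out and from 11.10 to 11.88 in wild-type muscle. Its log2 difference of -0.14 (95% interval -0.46 to 0.18) was 0.00 without wild-type mouse 3, -0.07 without knock-out mouse 3 and above 0 with sample weights (0.07) or a Y-linked covariate (0.04). The intervals leave room for a fall of about the size seen in Myl9 for Acta2, Myh11, Tagln and Cnn1, so these genes were not shown to be unchanged. When limma weighted the samples by their spread, Acta2, Myh11 and Tagln were called lower (log2 differences -0.39, -0.48 and -0.27, adjusted p = 0.0428, 0.00395 and 0.0473). That setting called 29.5% of all tested genes, 14.6% as higher and 14.9% as lower, whereas without weights 13.7% were called and 5.99% were lower.

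Among the pericyte genes other than Cspg4, Rgs5 encodes a regulator of G protein signalling that is abundant in pericytes. Its rlog value was 13.48, 13.11, 12.38, 12.90 and 13.85 in wild-type mice 1 to 5 and 12.92, 12.60, 12.59, 13.12 and 13.09 in knock-out mice 1 to 5. Wild-type mice 3 and 5 formed the lowest and highest values of all, and the knock-out values lay between them. The log2 difference of -0.28 (95% interval -0.76 to 0.21, adjusted p = 0.455 from limma) was -0.47 without wild-type mouse 3 and -0.10 without wild-type mouse 5. When the model also held the mean of 4 Y-linked transcripts, it was -0.54, with an adjusted p (limma) that rounds to 0.05 and lies just under it.

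Pdgfrb, which encodes the receptor for platelet-derived growth factor B that pericytes need, ranged from 8.89 to 9.40 in knock-out and from 9.11 to 9.53 in wild-type muscle. The groups overlapped, with a log2 difference of -0.14 (95% interval -0.40 to 0.13, adjusted p = 0.504 from limma). It was -0.21 without knock-out mouse 1, -0.08 without knock-out mouse 3, -0.09 without knock-out mouse 4, -0.14 without wild-type mouse 3 and -0.06 without wild-type mouse 4, and a 2-fold change in either direction lay outside its interval. Pdgfrb and Cspg4 are both used as pericyte markers, yet the interval of Cspg4, 0.76 to 1.29, began above the upper end of that of Pdgfrb.

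**Figure D2:**
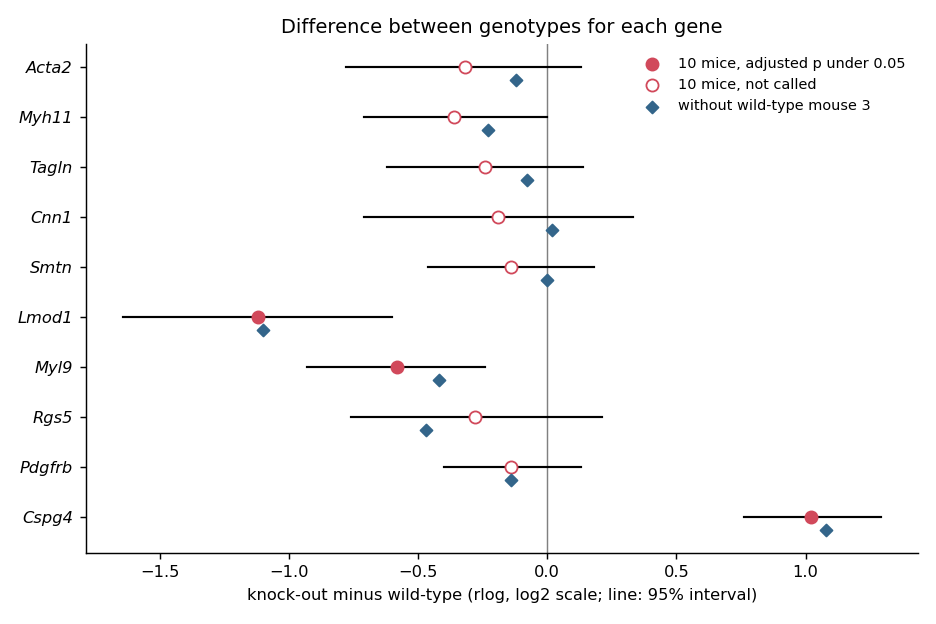
The plot gives the difference between genotypes (knock-out minus wild-type, rlog on a log2 scale) for each gene, with circles for all 10 mice (filled where the adjusted p was under 0.05), lines for the 95% interval and diamonds for the difference without wild-type mouse 3. Lmod1 at -1.12, Myl9 at -0.58 and Cspg4 at 1.02 have intervals clear of 0, and the diamonds of Acta2, Tagln, Cnn1 and Smtn lie within 0.12 of 0.

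To set the levels of the genes beside each other, log2 of the summed exon length in kilobases was subtracted from the rlog value. On this scale of level per length, Rgs5 was the highest in wild-type muscle with 10.96 ± 0.56 (SD, n = 5), followed by Myl9 with 10.56 ± 0.38, Acta2 with 10.01 ± 0.47, Tagln with 9.57 ± 0.41 and Smtn with 9.21 ± 0.34. None of these neighbours differed by more than the sum of their SDs. Myh11 with 7.54 ± 0.37 and Pdgfrb with 6.78 ± 0.17 followed, each clearly below the gene before it. Lmod1 with 6.60 ± 0.56 did not differ from Pdgfrb beyond its spread, and Cnn1 with 4.92 ± 0.62 and Cspg4 with 4.52 ± 0.22 formed the lower end, with Cnn1 below Lmod1 by more than their spread and close to Cspg4. In knock-out muscle the order of the first 7 genes was the same. Below them, Cspg4 (5.55 ± 0.17) moved from rank 10 to rank 8, Lmod1 (5.48 ± 0.34) from rank 8 to rank 9 and Cnn1 (4.74 ± 0.19) from rank 9 to rank 10, with Cspg4 and Lmod1 closer than their spread.

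Several of the 10 genes belong to families whose other members are used by striated muscle fibers or by most cells. In this list of 19 paralogs, 4 rose and 2 fell (limma). Over all tested genes, 7.7% were called higher and 5.99% lower. Smtnl1, a smoothelin-like gene of skeletal muscle, rose by 1.13 (log2 scale, standard error 0.17, adjusted p = 4.8e-04), the light chain gene Myl12a by 0.65 (standard error 0.10, adjusted p = 7.6e-04) and Myh10, a nonmuscle myosin heavy chain, by 0.81 (standard error 0.16, adjusted p = 0.00365). Lmod2, the leiomodin of striated muscle, rose by 1.01 (standard error 0.22, adjusted p = 0.00704). Lmod3, needed for thin filaments of skeletal muscle, had 0.23 (adjusted p = 0.0851). The genes that fell were the cardiac actin gene Actc1, at -0.83 (log2 scale, standard error 0.24, adjusted p = 0.0352), and Smtnl2 with -0.36 (standard error 0.11, adjusted p = 0.0459). The call of Actc1 was lost without knock-out mouse 2, 3, 4 or 5 or wild-type mouse 2, 3 or 4, and that of Smtnl2 without any single knock-out mouse or wild-type mouse 1 or 4. Acta1 had -0.42 (adjusted p = 0.304).

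Whether a gene of the set and a paralog responded unequally was tested on their difference within each mouse, for 19 pairs, with an exact two-sided permutation test over mice. This test was added after the values had been seen. In 5 pairs the gene of the set was lower relative to its paralog in knock-out muscle, and in 3 of them, Lmod1 with Lmod2, Lmod1 with Lmod3 and Myl9 with Myl12a, this followed from the values of the single genes, whose groups were already apart in opposite directions or only touched. Those 3 changes are a description. For the other 2 pairs, Smtn with Smtnl1 and Myh11 with Myh10, the exact permutation p was 0.00794, the smallest that 5 against 5 mice allow. The adjusted p was 0.0302 over the 19 pairs. Here the paralogs alone already separated the genotypes. Smtnl1 was at least 13.58 in knock-out and at most 13.27 in wild-type mice, and Myh10 at least 10.39 and at most 10.23. Smtn (-0.14) and Myh11 (-0.36) were not called, so these p-values cannot show that the genes of the set responded. Lmod1 minus Lmod2 went from -4.34 ± 0.80 (SD, n = 5) in wild-type to -6.47 ± 0.29 (SD, n = 5) in knock-out mice, a change of -2.13. The change was -1.35 for Lmod1 minus Lmod3, -1.27 for Smtn minus Smtnl1, -1.23 for Myl9 minus Myl12a and -1.17 for Myh11 minus Myh10. In each of the 5 pairs the knock-out and wild-type values did not overlap.

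The other 14 pairs did not pass the test. Acta2 minus Acta1 changed by 0.09 (exact permutation test, p = 0.627), and Pdgfrb minus Pdgfra, the receptor gene of fibroblasts, by -0.21 (exact permutation test, p = 0.437). Without wild-type mouse 3 none of the 19 pairs was called, and the changes of the 5 pairs were -2.07, -1.30, -1.32, -1.11 and -0.96, in the same order. All 5 still had the smallest exact permutation p that 4 wild-type mice allow, 0.0159, with an adjusted p of 0.0603. Of the stretches of 50 bases in Acta2 transcripts, 0.326% also occur in transcripts of another gene, and 0.34% of those of Myh11. For the other 8 genes none did, so reads of that length are rarely shared with paralogs. Tagln is overlapped over 3627 bases by the antisense gene Gm48529 (mean rlog value 4.76), and the strand setting of the counting is not given in the sources used here.

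**Figure D3:**
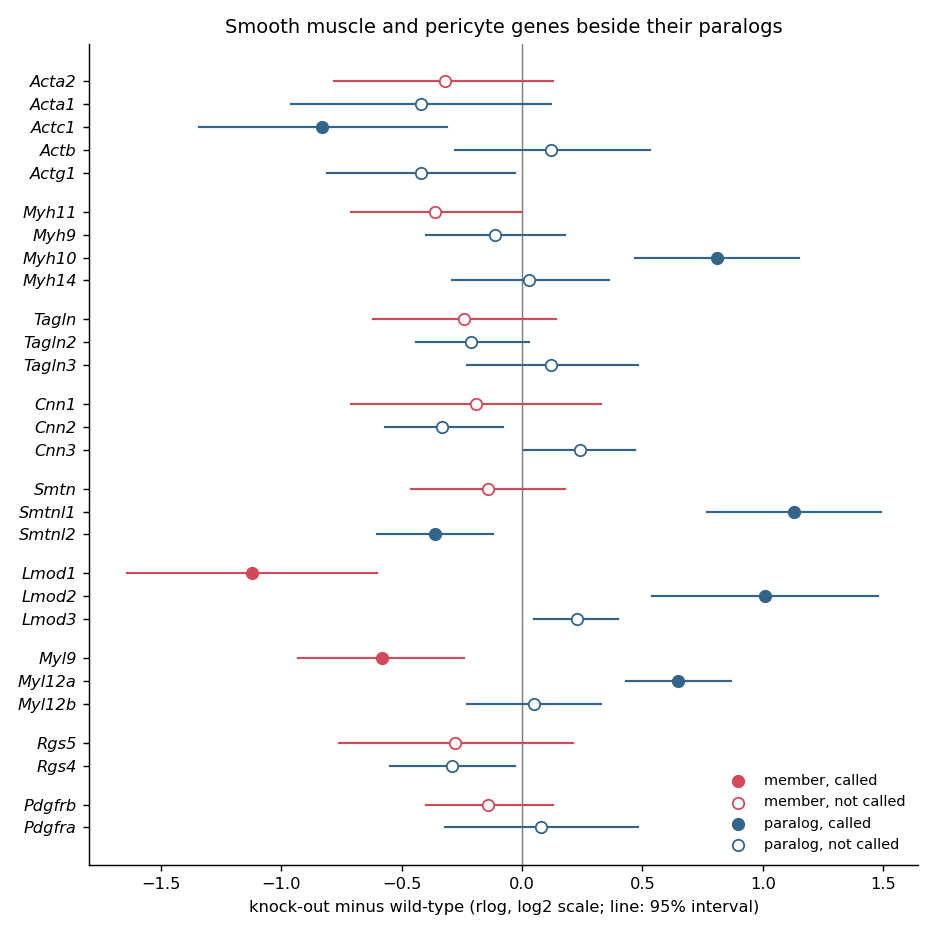
The plot sets each gene of the set (red) above its paralogs (blue), with the difference between genotypes (knock-out minus wild-type, rlog on a log2 scale), its 95% interval as a line and filled circles for an adjusted p under 0.05. Lmod1 (-1.12) and Lmod2 (1.01) lie on opposite sides of 0, as do Myl9 (-0.58) and Myl12a (0.65), whereas Acta2 (-0.32) and Acta1 (-0.42) lie together.

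Further genes linked to these cells were read from lists. Of 12 further contractile smooth muscle genes, none was called (limma), and 1, Npnt, had an unadjusted p under 0.05. Their median log2 difference was 0.00, with a range from -0.36 to 0.29. Levels in the list were uneven. Synpo2 lay at 14.30 to 15.05 and Ppp1r12b at 13.05 to 13.72, above all values of Acta2 and Myh11, and Actg2 at 3.32 to 4.78. Which cells these transcripts came from was not tested, so the list does not show that smooth muscle was unchanged. Npnt, which encodes the matrix protein nephronectin, had a log2 difference of 0.29 (adjusted p = 0.134), the myosin phosphatase inhibitor gene Ppp1r14a had -0.26 (adjusted p = 0.22) and the myosin phosphatase subunit gene Ppp1r12b had 0.23 (adjusted p = 0.244; all from limma). Without wild-type mouse 3, 2 genes of this list were called, Npnt and Synpo2, both higher, and without wild-type mouse 4 Mylk was called lower. These settings called 17.5% and 13.6% of all tested genes, with 9.34% as higher without mouse 3 and 6.21% as lower without mouse 4.

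Of 12 further pericyte and mural genes, 3 fell and none rose (limma), with a median log2 difference of -0.40. Over all tested genes, 5.99% were called lower and 7.7% higher, with a median of -0.003. Mcam, an adhesion molecule of mural and endothelial cells, averaged 9.69 ± 0.16 (SD, n = 5) in wild-type mice and 9.23 ± 0.07 (SD, n = 5) in mice without desmin. It fell by 0.46 (log2 scale, standard error 0.09) with an adjusted p of 0.00518 from limma. Kcnj8, the pore of the pericyte channel sensitive to ATP, had -0.53 (standard error 0.13, adjusted p = 0.0144 from limma). Higd1b, a gene of the HIG1 domain family used as a pericyte marker, had -0.54 (standard error 0.14, adjusted p = 0.0196 from limma). For each of the 3 genes all knock-out values lay under the lowest wild-type value, which held for 6.97% of all tested genes. Without wild-type mouse 3 the log2 differences of Mcam, Kcnj8 and Higd1b were -0.41, -0.53 and -0.48, and all 3 stayed called. Cspg4 had the opposite sign. Leaving out wild-type mouse 1 or 2 raised the number of called genes in this list to 5, each of them lower. These settings called 13.3% and 11.6% of all tested genes, 5.65% and 4.96% as lower.

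**Figure D4:**
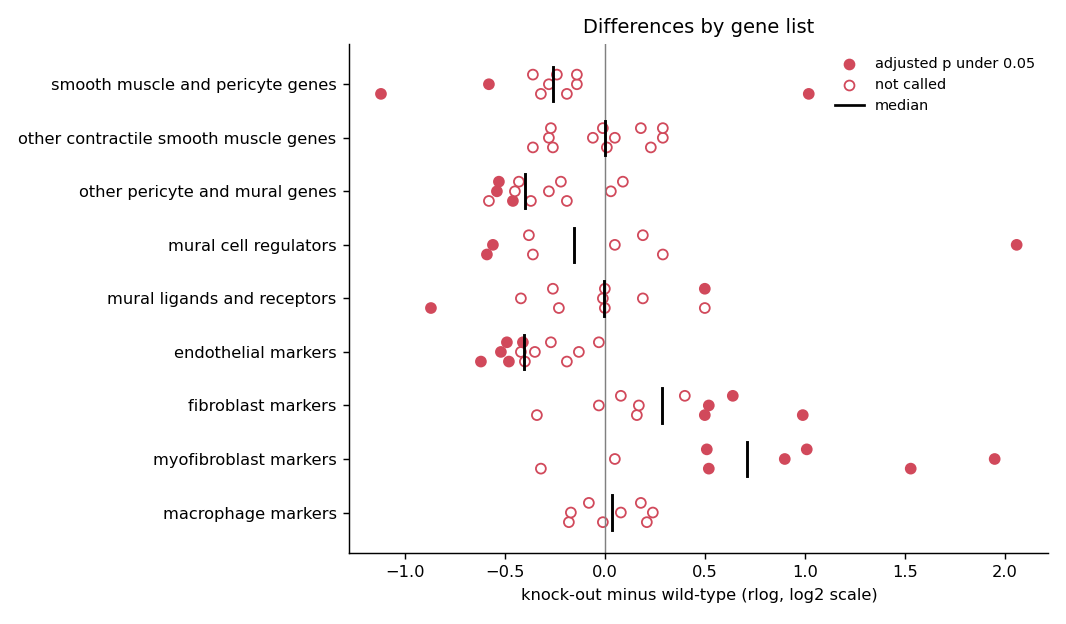
The plot shows the difference between genotypes (knock-out minus wild-type, rlog on a log2 scale) of every tested gene in 9 lists, filled where the adjusted p was under 0.05, with a bar at the median of each list. The 12 endothelial markers all lie below 0, most pericyte and mural genes do as well (10 of 12), and the myofibroblast markers lie furthest to the right, with a median of 0.71.

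Of 10 regulators of mural genes, 8 were tested, and Myocd and Foxf1 lay under the limit. Of the 8, 1 rose and 2 fell (limma), with a median log2 difference of -0.16 and 4 means in each direction. Over all tested genes, 7.7% were called higher and 5.99% lower, with a median of -0.003. Klf5, a zinc finger factor of proliferating smooth muscle that other cells use too, rose from 7.72 ± 0.50 (SD, n = 5) to 9.78 ± 0.17 (SD, n = 5), by 2.06 (standard error 0.20, adjusted p = 1.3e-05 from limma). Srf, which encodes serum response factor, fell from 11.81 ± 0.34 (SD, n = 5) to 11.26 ± 0.15 (SD, n = 5), or by -0.56 (standard error 0.15, adjusted p = 0.022 from limma). Its coactivator gene Mrtfa had -0.59 (standard error 0.19, adjusted p = 0.0489 from limma). Without wild-type mouse 3 the log2 differences of Klf5, Srf and Mrtfa were 1.87, -0.41 and -0.53. The call of Srf was lost without knock-out mouse 1 or 5, and that of Mrtfa without any single knock-out mouse or wild-type mouse 3 or 4. The other 5 tested regulators were not called. Their log2 differences were 0.19 for Mrtfb, 0.29 for Tbx18, 0.05 for Klf4, -0.38 for Elk1 and -0.36 for Hey1. Muscle fibers use these regulators too, and which cells the transcripts came from was not tested.

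Of 12 ligands and receptors that act on mural cells, 10 were tested, 1 rose and 1 fell (limma). These counts are near the shares over all tested genes, 7.7% called higher and 5.99% called lower. Pdgfb, the ligand of Pdgfrb, was higher by 0.50 (log2 scale, standard error 0.13, adjusted p = 0.0196 from limma), a call that was lost without knock-out mouse 2 or 4. Adra1a, which encodes an adrenergic receptor of smooth muscle, went from 5.26 ± 0.23 (SD, n = 5) to 4.39 ± 0.13 (SD, n = 5), or by -0.87 (standard error 0.13, adjusted p = 4.9e-04 from limma). Angpt1, the mural ligand of the endothelial receptor Tie2, had 0.50 (adjusted p = 0.0702 from limma).

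Markers of neighbouring cell types are given because their amounts could move with the set. For comparison with these lists, 5.99% of all tested genes were called lower and 7.7% higher, with a median difference of -0.003. Of 12 endothelial markers, 5 fell and none rose (limma), among them Vwf (log2 difference -0.62), Cdh5 (-0.52) and Pecam1 (-0.49), with a median of -0.41. Without wild-type mouse 3 these 3 had -0.53, -0.51 and -0.42. The other 2 calls, Tek (-0.41) and Tie1 (-0.48), were each lost without any single knock-out mouse. Tek was also lost without wild-type mouse 1, 2, 3 or 5 and Tie1 without wild-type mouse 2 or 4, so that 3 markers were called without knock-out mouse 2, 3, 4 or 5 or wild-type mouse 2. Log2 of the summed level of this list ranged from 12.38 to 12.74 in knock-out and from 12.71 to 13.04 in wild-type mice, where that of the 10 genes of the set ranged from 13.83 to 14.09 and from 14.08 to 14.59. Such sums are of unlogged levels, so the highest genes weigh most. In the set this is Rgs5, which was not called. Rgs5 alone ranged from 12.59 to 13.12 in knock-out and from 12.38 to 13.85 in wild-type mice. Of 10 fibroblast markers, 4 rose, with Col1a2 (0.64), Lum (0.99) and Col1a1 (0.50) among them. The median log2 difference of the 10 markers was 0.28, with a range from -0.34 to 0.99 and 2 lower means. The summed level (log2) of the 10 was 14.96 to 15.43 in knock-out and 14.43 to 15.41 in wild-type mice. Col1a1 lost its call without knock-out mouse 1, 2, 4 or 5 or wild-type mouse 1, 2 or 4, and the fourth call, Col3a1 (0.52), without those knock-out mice or wild-type mouse 2, 3, 4 or 5. Of 8 myofibroblast markers, a list that includes Acta2, 6 rose, led by Postn (1.95), Col12a1 (1.53) and Tnc (1.01). The summed level (log2) of the 8 was 12.29 to 12.72 in knock-out and 11.81 to 12.45 in wild-type mice. The highest wild-type sum was that of wild-type mouse 3, where Acta2 was at 11.96, and the highest of the other wild-type mice was 12.18. None of 8 macrophage markers was called (limma), nor did any have an unadjusted p under 0.05; Csf1r had -0.18, C1qa -0.17 and Mrc1 0.24, and the summed level (log2) was 11.25 to 11.72 and 11.22 to 11.62. No marker in these lists was at 0. The part of these cell types in the differences of Lmod1, Myl9 and Cspg4 was not tested.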

How the data were processed

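RNA of the gastrocnemius muscle of 5 desmin knock-out and 5 wild-type mice was sequenced. According to the submitters' processing notes, the authors used cutadapt 2.5, STAR 2.5.4a, featureCounts of Subread 1.6.1 and DESeq2 on GRCm38; the settings are not given in the sources used here. The deposited table holds regularized log values, a log2 unit in which genes with few reads are pulled most strongly to their average, so that their differences come out small. Counting error is unknown. The tests were two-sided and used R 4.3.3 with limma 3.58.1 (lmFit, then eBayes with its trend option). Intervals are limma's 95% intervals, exact permutation tests used scipy 1.17.1, and the limma script was tested on simulated data. Symbols and positions came from GENCODE M21 (GRCm38), with matches for 54165 of 54232 genes; Mrtfa and Mrtfb were matched through synonyms.

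The members and lists were chosen with earlier results of these data known. Besides the 10 genes of the set, the text names the 3 genes of each list that ranked first by adjusted p. It also names Acta1, Actc1, Lmod2, Lmod3, Smtnl1, Pecam1, Cdh5 and Des. Smtnl2, Pdgfra, Tek, Tie1, Col3a1, Synpo2, Mylk, Actg2, Mrtfb, Klf4, Elk1, Hey1 and Tbx18 were chosen after their values were seen. Alternatives were leaving out each mouse, sample weights, no limit or one of log2(50) on low values, quantile normalization, median centring, a Y-linked covariate, a replicate block, a prior variance without trend, an adjusted p under 0.01, and a CArG box with 1 other base.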

Additional observations from a re-analysis of the deposited data

Results flagged for a closer look

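Of 20 groups of 5 mice (each genotype for each of the 10 genes), 3 had a mouse far from the other 4 by Dixon's test, where chance gives about 1. These were wild-type mouse 3 for Acta2 (11.96, the highest), knock-out mouse 2 for Tagln (10.71, the highest knock-out value) and wild-type mouse 4 for Pdgfrb (9.53, the highest wild-type value). None of the 3 genes was called in the comparison of genotypes. Without these mice, the log2 difference of Acta2 was -0.12, that of Tagln was -0.34 and that of Pdgfrb was -0.06.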

How the results depend on the processing

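With sample weights, 6 of the 10 smooth muscle and pericyte genes were called in place of 3, as were 2 further contractile genes, 5 further pericyte genes, 5 ligands and receptors and 11 paralogs; the share of all tested genes called rose from 13.7% to 29.5%. An adjusted p under 0.01 left 2 genes of the set, Lmod1 and Cspg4. It also left 1 further pericyte gene, 1 regulator, 1 ligand or receptor, 2 endothelial and 2 fibroblast markers. The share of all tested genes under 0.01 was not counted. Without a limit on low values there were 1 regulator, 3 endothelial and 2 fibroblast markers, and a limit of log2(50) left 1 ligand or receptor. Of all tested genes, these 2 settings of the limit on low values called 5.55% and 13.5%. Quantile normalization gave 1 further contractile gene, and median centring, a prior variance without trend and the Y-linked covariate each gave 2 fibroblast markers. In this order, the 4 settings called 15.0%, 13.4%, 13.3% and 14.6% of all tested genes. With each mouse left out in turn, 2 to 3 genes of the set were called, 0 to 2 contractile genes, 3 to 5 pericyte genes, 1 to 4 regulators, 1 to 3 ligands and receptors, 4 to 6 paralogs, 3 to 5 endothelial, 2 to 4 fibroblast and 5 to 6 myofibroblast markers. The share of all tested genes called moved too, from 9.8% without knock-out mouse 5 to 17.5% without wild-type mouse 3. The cause was not tested. Differences changed sign for Cnn1 (-0.37 to 0.02 over the mice left out, the last without wild-type mouse 3) and Smtn (0.07 with sample weights, 0.04 with the Y-linked covariate). Allowing 1 other base in the CArG box gave 2 genes in place of 1.

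Whether the replicate numbers pair the mice is unknown. Deviations from the group means of same-numbered mice correlated between -0.219 and 0.067, and no knock-out mouse correlated best with its own number. No shared effect was thus seen, but such correlations cannot show how the numbers were given. With the replicate number as a block, the same 3 genes of the set were called and 3 instead of 5 endothelial markers, without Tek and Tie1. Of all tested genes, 11.1% were called with the block and 13.7% without it. Higd1b (adjusted p = 0.0562, limma) and Smtnl2 (0.0932) lost their calls and Angpt1 (0.0383) gained one. The unknown depth limits the low genes most, since shrinkage is strongest there.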
